A study of Mus musculus with 18 samples.

Results

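The genes described here are the 5 NF-kB subunits and 5 of the IkB proteins that bind them, 10 genes found by symbol among the 56748 genes of the deposited count table: the subunits Rela, Rel, Nfkb1, Relb and Nfkb2, the cytoplasmic inhibitors Nfkbia, Nfkbib and Nfkbie, and the nuclear IkB proteins Nfkbiz and Bcl3. Each symbol matched 1 row, and all 10 were among the 15450 genes that passed the filter on low counts, with 55 to 4594 reads per library. RNA was sequenced from mouse bone marrow-derived macrophages of the C57BL/6J strain, grown out of marrow in complete medium with supernatant of L929 cells, which secrete M-CSF, the growth factor of macrophages. The mice were wild type or lacked TLR4, the receptor for bacterial lipopolysaccharide. On day 7 the cells received water, GM (GlcNAc-MurNAc, a disaccharide of bacterial peptidoglycan) or MDP (spelled MurNAc-D-Ala-L-Gln in the labels) for 24 h in IMDM without serum. The 6 groups, wild-type water, GM and MDP and knockout water, GM and MDP, hold 3 libraries each. The doses are not given in the sources used here, so GM and MDP were compared as applied and not at matched doses. Each library is titled a biological replicate. Whether replicates were separate animals or cultures is not stated, so p-values describe only the spread between these libraries. The knockout allele is not named either.

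NF-kB is a family of dimeric transcription factors that are held in the cytoplasm by IkB proteins and released when a kinase complex marks the IkB for destruction. In the canonical arm, signals from Toll-like receptors, NOD2 or cytokine receptors free dimers of RelA, c-Rel and p50 (the product of Nfkb1); in the non-canonical arm, the kinase NIK (Map3k14) leads to processing of p100 (the product of Nfkb2) to p52, the partner of RelB. Several family genes, among them Nfkbia and Nfkb2, are themselves textbook NF-kB targets, and resynthesised IkB proteins end the response. Activation of the factors is a matter of protein location and processing, which RNA levels do not measure.

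The promoters are shown to set 4 members with a match to the NF-kB binding site, the kappaB site, shortly before their start (Rel, Nfkb2, Nfkbia and Nfkbie) beside Rela, which has none there. RefSeq promoter windows of build GRCm38.p6, which differs from the GRCm39 build of the count table, were at hand for 7 of the 10 members and were not at hand for Nfkb1, Relb and Nfkbiz. The 250 bases before the annotated start are printed for 5 genes, 5′ to 3′ on the gene's own strand. Capitals mark matches, on either strand, to the kappaB consensus, overlapping matches being merged.
Rel, chr11:23770970-23771219, minus strand: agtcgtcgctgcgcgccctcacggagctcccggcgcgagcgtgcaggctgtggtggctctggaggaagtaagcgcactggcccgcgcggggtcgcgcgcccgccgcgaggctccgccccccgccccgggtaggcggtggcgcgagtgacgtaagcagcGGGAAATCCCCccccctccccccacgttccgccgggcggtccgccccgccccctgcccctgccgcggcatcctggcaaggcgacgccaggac
Nfkb2, chr19:46304487-46304736, plus strand: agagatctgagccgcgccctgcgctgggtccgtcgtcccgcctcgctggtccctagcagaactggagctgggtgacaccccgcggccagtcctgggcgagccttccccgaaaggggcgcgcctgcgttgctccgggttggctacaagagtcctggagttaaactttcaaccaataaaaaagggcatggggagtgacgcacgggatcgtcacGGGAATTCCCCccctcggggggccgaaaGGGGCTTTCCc
Nfkbia, chr12:55492648-55492897, minus strand: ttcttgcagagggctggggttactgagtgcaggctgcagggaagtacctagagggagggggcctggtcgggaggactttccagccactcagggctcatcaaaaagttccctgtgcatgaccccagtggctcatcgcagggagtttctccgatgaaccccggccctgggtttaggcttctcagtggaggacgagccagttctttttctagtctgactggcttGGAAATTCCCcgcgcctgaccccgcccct
Nfkbie, chr17:45555450-45555699, plus strand: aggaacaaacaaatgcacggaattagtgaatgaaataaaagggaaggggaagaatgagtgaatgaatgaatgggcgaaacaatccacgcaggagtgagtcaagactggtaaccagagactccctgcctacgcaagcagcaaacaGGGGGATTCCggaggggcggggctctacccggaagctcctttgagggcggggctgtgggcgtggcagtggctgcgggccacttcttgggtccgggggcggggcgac
Rela, chr19:5637291-5637540, plus strand: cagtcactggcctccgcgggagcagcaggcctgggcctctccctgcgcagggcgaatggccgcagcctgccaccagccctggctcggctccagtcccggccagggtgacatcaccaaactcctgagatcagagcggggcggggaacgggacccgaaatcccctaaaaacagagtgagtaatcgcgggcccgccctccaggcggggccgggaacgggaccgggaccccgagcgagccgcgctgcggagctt

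In the Rel window 3 overlapping matches lie at positions -92 and -91, counted back from the start to the first base of the match. Nfkb2 holds matches at -39, -38 and -11 in the window printed, the first of its 3 annotated starts. Nfkbia has 1 match at -29 and Nfkbie 1 at -106. The windows of Rela and Nfkbib held none, and the match of Bcl3 lies after the start, at position 3. The consensus occurred in 7.25% of the 32851 windows of 250 upstream bases in the table and in 4 of the 7 members with a window. A stricter form, GGG followed by any 2 bases and TTTCC, searched on both strands and overlapping the consensus at each of its matches upstream of members, occurred in 1.41% of the windows and upstream of Rel, Nfkb2 and Nfkbia. A match is a description of the letters and not evidence of binding.

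Libraries held 15532973 to 21128507 counts. Tlr4 stood at 117 to 230 CPM (read counts scaled to a common library size with TMM factors, the scale of every level below unless another is named) in wild-type libraries and at 36.5 to 52.9 CPM in knockout libraries. All 10 macrophage markers were detected in every group. Replicates of wild-type water and wild-type GM differed far more than those of the other groups, with a biological coefficient of variation of 35.5% and 27.6% against 5.69% to 8.11%. Wild-type water replicate 3 stood apart, at -43.5 on the second principal component where its partners lay at -5.54 and -5.81, with stroma markers summing to 63.0 CPM against 345 and 313 CPM. Results were taken from 1 edgeR quasi-likelihood fit of all 18 libraries, with Benjamini-Hochberg adjustment over all genes and a threshold of 0.05, and set beside the same fit of only the libraries compared. In bulk RNA, fewer cells of a type and less RNA per cell cannot be told apart.

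In wild-type cells GM raised 8 of the 10 genes. The increases ran from 5.86-fold for Nfkbiz and 2.53-fold for Nfkbia through 2.36-fold for Relb, 2.17-fold for Nfkb2, 1.95-fold for Rel, 1.76-fold for Nfkbie and 1.65-fold for Nfkbib to 1.46-fold for Nfkb1. Rela and Bcl3 did not pass. Of all genes tested, 3.94% passed upward in this comparison. The median log2 fold change of the 10 genes was 0.89, beside -0.03 over all genes. In the fit of the 6 libraries compared, 3 members passed, Nfkb2, Nfkbia and Nfkbiz, beside 0.621% of all genes. Without wild-type water replicate 3 all 10 passed in the fit that otherwise held every library.

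MDP raised 7 members in wild-type cells: Relb 4.06-fold, Nfkb2 2.44-fold, Rel 2.27-fold, Nfkbiz 2.04-fold, Nfkbia 1.57-fold, Nfkbib 1.48-fold and Rela 1.27-fold. Nfkb1, Nfkbie and Bcl3 did not pass. Here 11.2% of all genes passed upward. The members' median log2 fold change was 0.61, beside -0.04 over all genes. In the fit of the compared libraries 5 members passed, Rel, Relb, Nfkb2, Nfkbia and Nfkbiz, beside 4.63% of all genes. Set against each other in wild-type cells, GM gave more Nfkbiz and Nfkbia than MDP, beside 10.1% of genes higher with GM, and less Relb, beside 9.37% of genes lower with GM. The fit of the compared libraries kept the call for Nfkbiz and Nfkbia, beside 4.96% of genes, but not for Relb (edgeR adjusted p = 0.0613). Leaving out GM replicate 1, GM replicate 3 or MDP replicate 2 also ended the Relb call (edgeR adjusted p from 0.0544 to 0.0708).

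In knockout cells no member passed with GM in the fit of all 18 libraries, where 3 genes, 0.0194% of those tested, passed in either direction. At an unadjusted p under 0.05 the same edgeR test held 749 genes, with Nfkbia the 1 member among them (unadjusted p = 0.00314), and DESeq2 also called 0 members. The fit of the 6 knockout libraries called 5 members higher, Relb, Nfkb2, Nfkbia, Nfkbie and Bcl3, beside 3.79% of all genes, with log2 fold changes of 0.19 to 0.31. The libraries of 7 members did not overlap between GM and water, all higher with GM, as held for 11% of all genes.

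MDP raised Nfkbia 1.57-fold and Nfkb2 1.31-fold in knockout cells, where 1.59% of all genes passed upward. The fit of the 6 libraries called 8 members, all but Rela and Nfkb1, beside 9.29% of genes. For 9 members the MDP libraries all lay above the water libraries, as for 15.5% of all genes, and Rela was the exception. Leaving out any 1 of the 6 libraries from the fit of all libraries ended the Nfkb2 call (edgeR adjusted p from 0.0543 to 0.182), while Nfkbia alone stayed called. GM gave less Nfkbia than MDP in knockout cells, beside 1.13% of genes lower with GM. That call was lost without any 1 of the 6 libraries (edgeR adjusted p from 0.0552 to 0.192). The fit of the 6 libraries called 8 members lower with GM than with MDP, all but Rela and Nfkbie, beside 8.55% of genes.

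**Figure D1:**
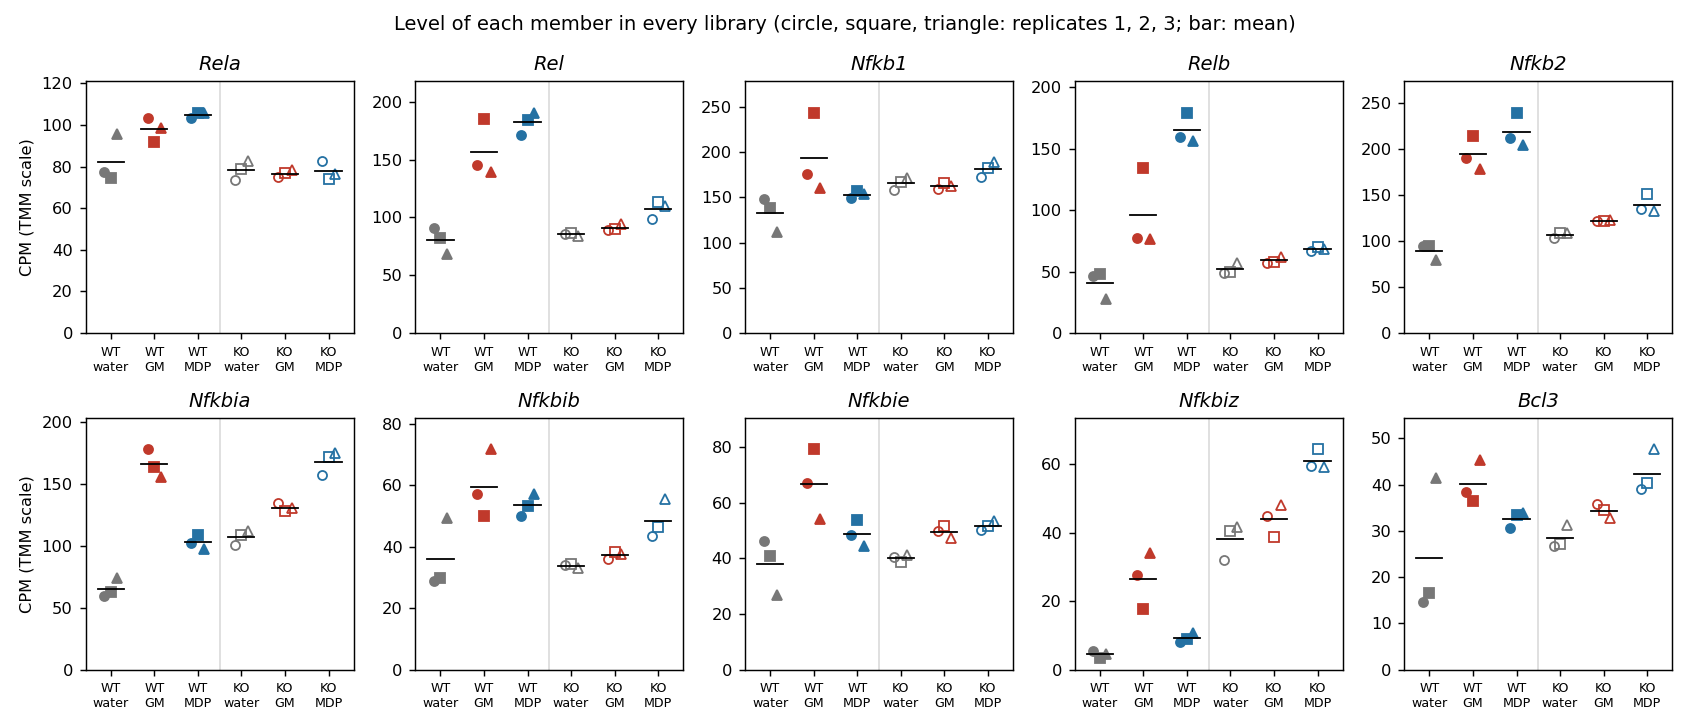
Each panel plots 1 gene in CPM on a linear axis from 0, with a point for each of the 18 libraries and a bar at the group mean; filled points are wild type and open points knockout. Relb and Nfkb2 rise with both treatments mainly in wild type, Nfkbia is highest in wild-type GM and knockout MDP, and Nfkbiz lies between 32.0 and 64.4 CPM in knockout and at 34.0 CPM or below in wild type.

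Rela encodes RelA (p65), the main activating subunit of the canonical arm. Its wild-type levels were 77.3, 74.3 and 95.4 CPM in water, 103, 91.7 and 98.5 CPM with GM and 103, 106 and 106 CPM with MDP. In knockout cells the 9 libraries lay between 73.3 and 82.8 CPM in all 3 treatments. The narrow knockout range contains no treatment effect that passed, with log2 fold changes of -0.03 ± 0.09 (SE, 3 libraries per group) for GM and -0.01 ± 0.09 for MDP. With MDP in wild type Rela was 1.27-fold higher (edgeR adjusted p = 0.00804), and the call was lost in the fit of the compared libraries (edgeR adjusted p = 0.0982) and in limma-voom with a spread for each group (limma adjusted p = 0.0557). Wild-type water replicate 3 had the highest water level, and without it the GM change in Rela passed as well, at a log2 fold change of 0.38 (edgeR adjusted p = 0.00147).

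Rel encodes c-Rel, a second activating subunit, prominent in macrophages and lymphocytes. It was measured at 90.7, 81.8 and 68.3 CPM in wild-type water, at 145, 185 and 139 CPM with GM and at 171, 184 and 191 CPM with MDP. Neither treated group overlapped water, and the log2 fold changes were 0.96 ± 0.11 (SE) for GM and 1.18 ± 0.11 for MDP. Knockout levels were 85.8, 86.9 and 84.3 CPM in water, 88.8, 90.0 and 94.4 CPM with GM and 98.9, 113 and 110 CPM with MDP. The knockout groups also lay in that order without overlap, but over a range of 84.3 to 113 CPM.

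Nfkb1 encodes p105, the precursor of p50, which binds DNA without an activation domain of its own. Wild-type levels were 149, 138 and 111 CPM in water, 176, 244 and 160 CPM with GM and 149, 157 and 153 CPM with MDP. GM replicate 2 was the highest of the 18 libraries, and without it the 1.46-fold rise with GM no longer passed (edgeR adjusted p = 0.0553), as in limma-voom with a spread for each group (limma adjusted p = 0.151). In knockout cells Nfkb1 ranged from 158 to 189 CPM, with the 3 MDP libraries highest, and neither treatment passed there in either fit.

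Relb encodes RelB, the activating subunit of the non-canonical arm and a factor known from mature dendritic cells. Its wild-type levels were 46.2, 48.2 and 27.7 CPM in water, 77.3, 134 and 76.9 CPM with GM and 160, 180 and 156 CPM with MDP. The 3 groups did not overlap and rose in that order, although GM replicate 2 stood well above its partners. In knockout cells Relb was at 49.2, 49.8 and 57.2 CPM in water, 57.4, 58.0 and 62.1 CPM with GM and 66.4, 69.9 and 68.7 CPM with MDP. Every knockout library treated with MDP thus lay below every wild-type library treated with either compound. The log2 fold change with MDP was 2.02 ± 0.20 (SE) in wild type and 0.39 ± 0.20 in knockout.

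Nfkb2 encodes p100, both the precursor of p52 and an inhibitor of RelB in its own right. It stood at 94.8, 94.7 and 78.9 CPM in wild-type water, 190, 214 and 178 CPM with GM and 211, 239 and 204 CPM with MDP. Both treatments cleared the water range, and GM and MDP overlapped each other. Knockout levels were 103, 109 and 109 CPM in water, 122, 121 and 122 CPM with GM and 135, 151 and 132 CPM with MDP. They were ordered as in wild type without overlap, with log2 fold changes of 0.19 ± 0.09 (SE) for GM and 0.38 ± 0.09 for MDP against 1.12 ± 0.09 and 1.29 ± 0.09 in wild type. The gene overlaps Psd and 4833438C02Rik on the other strand, which reached at most 13.7 and 13.1 CPM, and whether the counting used strand is not given in the sources used here.

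Nfkbia encodes IkBα, the inhibitor that is degraded first and resynthesised under NF-kB control. Its levels were 59.7, 62.9 and 73.8 CPM in wild-type water, 178, 164 and 156 CPM with GM and 102, 109 and 98.0 CPM with MDP. GM was highest and water lowest with no overlap, and the log2 fold changes were 1.34 ± 0.08 (SE) and 0.65 ± 0.08. In knockout cells the levels were 101, 109 and 112 CPM in water, 135, 128 and 131 CPM with GM and 157, 172 and 175 CPM with MDP. The order of the treatments was therefore the other way round in knockout cells, where MDP was highest. The MDP change had nearly the same size in the genotypes, 0.65 ± 0.08 in each, and their difference was 0.01 on the log2 scale, with a 95% interval of -0.24 to 0.26.

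Nfkbib encodes IkBβ, a slower inhibitor of the same dimers. It was at 29.0, 29.8 and 49.4 CPM in wild-type water, 57.0, 49.8 and 71.7 CPM with GM and 50.0, 53.2 and 57.0 CPM with MDP. Wild-type water replicate 3 lay just below the lowest treated library. The rises of 1.65-fold and 1.48-fold passed in the fit of all libraries (edgeR adjusted p = 0.0214 and 0.025) and not in the fit of the compared libraries. The rise with GM was also lost in limma-voom with a spread for each group (limma adjusted p = 0.157). Leaving out wild-type water replicate 1 or 2 also ended both calls (edgeR adjusted p from 0.0781 to 0.112), as did leaving out GM replicate 3 for GM (0.0746) and MDP replicate 2 or 3 for MDP (0.0615 and 0.0825). Knockout levels were 32.9 to 34.5 CPM in water, 35.9 to 38.1 CPM with GM and 43.4 to 55.6 CPM with MDP, with no overlap. Nfkbib shares its locus with Sirt2 on the other strand, a gene at up to 124 CPM, so reads of one could have been counted for the other if strand was not used.

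Nfkbie encodes IkBε, an inducible inhibitor with a preference for c-Rel dimers. The wild-type water libraries had 46.2, 40.8 and 26.8 CPM, the GM libraries 67.1, 79.2 and 54.2 CPM and the MDP libraries 48.4, 53.8 and 44.4 CPM. GM cleared the other groups, and MDP overlapped water. The log2 fold change was 0.82 ± 0.16 (SE) with GM (edgeR adjusted p = 0.00471), not passing in the fit of the compared libraries (0.446), and 0.37 ± 0.16 with MDP, which did not pass. In knockout cells the levels were 38.7 to 41.3 CPM in water, 47.3 to 51.5 CPM with GM and 50.3 to 53.4 CPM with MDP.

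Nfkbiz encodes IkBζ, a nuclear IkB protein that switches on secondary response genes such as Il6. In wild-type cells it was low in water, at 5.50, 3.35 and 4.59 CPM, rose to 27.7, 17.7 and 34.0 CPM with GM and was at 7.99, 8.85 and 10.8 CPM with MDP. The groups did not overlap, and the log2 fold changes were 2.55 ± 0.22 (SE) for GM and 1.03 ± 0.23 for MDP. The MDP change passed in both edgeR fits and not in limma-voom with a spread for each group (limma adjusted p = 0.278). In knockout cells it was already at 32.0, 40.5 and 41.7 CPM in water, with 45.0, 38.8 and 48.2 CPM after GM and 59.3, 64.4 and 59.2 CPM after MDP. Untreated knockout cells thus had 8.44-fold the level of untreated wild-type cells. The knockout MDP change of 0.68 ± 0.20 passed in the fit of the 6 libraries (edgeR adjusted p = 5.14e-08) and not in the fit of all (0.0861). DESeq2 on all libraries called that change (DESeq2 adjusted p = 0.0286).

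Bcl3 encodes a nuclear IkB protein that works with p50 and p52 dimers. Its wild-type levels were 14.6, 16.6 and 41.3 CPM in water, 38.4, 36.4 and 45.4 CPM with GM and 30.5, 33.3 and 34.0 CPM with MDP. The water group held 1 library, replicate 3, at the level of treated cells. With it, neither treatment passed; without it, GM gave a log2 fold change of 1.37 (edgeR adjusted p = 5.15e-07) and MDP 1.10 (edgeR adjusted p = 3.09e-06). Knockout levels ran from 26.6 to 31.4 CPM in water, 32.7 to 35.8 CPM with GM and 39.1 to 47.6 CPM with MDP. Those 3 groups did not overlap, and both changes passed in the fit of the 6 libraries (edgeR adjusted p = 0.0121 and 4.38e-07).

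The next comparison asked how the untreated genotypes differed. Knockout cells in water had more Nfkbiz, Nfkbia (1.64-fold) and Nfkb2 (1.19-fold) than wild-type cells, beside 14.6% of all genes higher in knockout. Nfkbiz changed by a log2 fold change of 3.08 ± 0.22 (SE) and Nfkbia by 0.71 ± 0.08, with edgeR adjusted p = 1.12e-07 and 1.41e-05. The fit of the 6 water libraries called these 2, beside 6.32% of genes, and not Nfkb2 (edgeR adjusted p = 0.14), which was also lost with no filter on low counts (0.0596) and in limma-voom with a spread for each group (limma adjusted p = 0.201). The Nfkb2 call was also lost without wild-type water replicate 3 (0.0777) or without any 1 knockout water library (0.0608 to 0.102). Nfkb1 and Relb lay higher in all 3 knockout libraries without passing, at log2 fold changes of 0.32 ± 0.13 and 0.36 ± 0.20. Such a separation upward, passing or not, held for 5 of the 10 members and for 3402 of the 15450 genes tested. Bcl3 passed without wild-type water replicate 3 (log2 fold change 0.89, edgeR adjusted p = 2.2e-05) and not with it (0.23). Markers of dividing cells, 15 of 15 detected in each group, summed to between 111 and 395 CPM for wild-type water and 951 to 1012 CPM in knockout water. Stroma markers summed to 63.0 to 345 CPM and 17.6 to 23.2 CPM in the same groups, with all 12 detected in each. The part of these cells in the genotype difference was not tested.

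The difference between the genotypes' responses was tested directly. The response to GM was larger in wild type for Nfkbiz, by 2.34 ± 0.29 (SE) on the log2 scale, Nfkbia, by 1.05 ± 0.12, Nfkb2, by 0.93 ± 0.13, and Rel, by 0.88 ± 0.15 (edgeR adjusted p from 6.55e-05 to 0.00457). These 4 members passed beside 1.77% of all genes, and the fit of the 12 libraries compared called the same 4 beside 0.926%. With limma-voom and a spread for each group Nfkbiz did not pass (limma adjusted p = 0.0726) and the other 3 did. Relb differed by 1.06 ± 0.29 and did not pass (edgeR adjusted p = 0.0949), although it passed in DESeq2 (DESeq2 adjusted p = 0.0258). Without wild-type water replicate 3, 8 members passed, with Rela, Relb, Nfkbib and Bcl3 added. Without GM replicate 3 of wild type 6 passed, with Nfkb1 and Relb added.

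The response to MDP was larger in wild type for the non-canonical pair Relb, by 1.63 ± 0.28 (SE), and Nfkb2, by 0.90 ± 0.13, and for Rel, by 0.85 ± 0.15 (edgeR adjusted p from 0.000465 to 0.00284). These 3 passed beside 4% of all genes, and the fit of the 12 libraries called the same 3 beside 4.63%. No IkB gene passed: the differences were 0.01 ± 0.12 for Nfkbia, 0.05 ± 0.24 for Nfkbib, -0.00076 ± 0.22 for Nfkbie, 0.35 ± 0.30 for Nfkbiz and -0.15 ± 0.38 for Bcl3. The interval for Bcl3 ran from -0.96 to 0.66, wide enough to hold sizeable differences in either direction. Without wild-type water replicate 3 the Bcl3 difference turned to 0.52 and passed (edgeR adjusted p = 0.0382), as did that of Rela at 0.51 (edgeR adjusted p = 0.00186). The wild-type and knockout responses have separate water controls.

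**Figure D2:**
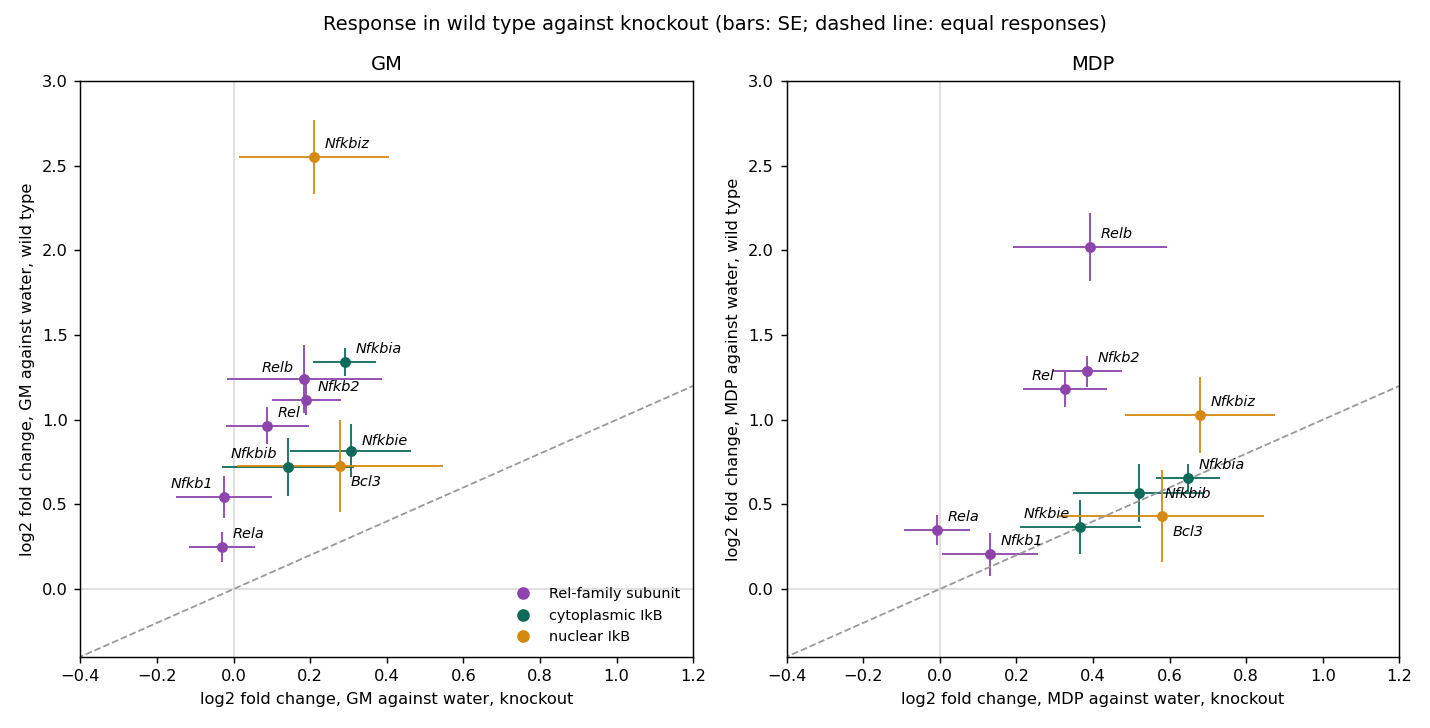
Each point is 1 gene, placed by its log2 fold change against water in knockout (horizontal axis) and in wild type (vertical axis), with SE bars; the left panel is GM and the right panel MDP. All 10 genes lie above the line of equal responses for GM, with Nfkbiz farthest from it, while for MDP Relb, Nfkb2 and Rel lie well above it and Nfkbia, Nfkbib and Nfkbie lie near it.

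Summed dendritic cell markers were ordered by treatment as Relb was, in both genotypes. Of 8 such markers 6 had a mean over 1 CPM in wild-type water and GM and 4 in the other groups. Their sum was 91.3 to 219 CPM for wild-type water, 528 to 636 CPM with GM and 725 to 803 CPM with MDP, and from 131 to 153, 164 to 205 and 317 to 419 CPM in the knockout groups. Most of it was Ccr7, 1 of the 8, a migration receptor that activated macrophages can also express, with group means of 107, 513 and 713 CPM in wild type and 125, 164 and 354 CPM in knockout. Flt3 and Zbtb46 were ordered in the same way at lower levels. In water, GM and MDP, Flt3 had group means of 2.39, 7.18 and 16 CPM in wild type and 2.77, 3.74 and 4.9 CPM in knockout. Those of Zbtb46 were 14.3, 24.1 and 28.5 CPM and 4.44, 5.94 and 8.98 CPM. Other markers of the list had lower means with MDP than in water in wild type: Cd209a had group means of 13.4, 1.09 and 0.384 CPM in water, GM and MDP, Itgae 11.7, 3.08 and 0.689 CPM, and Clec9a 18.8, 20.7 and 9.61 CPM. Of the 6 markers tested, 2 passed higher and 3 lower with MDP in wild type, with a median log2 fold change of 0.01, and 1 passed higher with GM. Xcr1 and Siglech stayed below 0.2 CPM on average in every group, Siglech was at 0 in wild-type GM, wild-type MDP and knockout MDP, Xcr1 in knockout GM and Cd209a in knockout MDP. Stroma markers summed to 70.8 to 122 CPM in wild-type GM, 20.2 to 27.4 CPM in wild-type MDP, where Lum was at 0, and 8.51 to 14.4 CPM in treated knockout cells. Their part in the Relb result was not tested.

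To compare non-canonical with canonical subunits, levels were divided by gene length (CPM per kilobase) and ratios formed within each library. The ratio of Nfkb2 to Nfkb1 was 1.68, 1.81 and 1.87 in wild-type water, 2.85, 2.31 and 2.92 with GM and 3.74, 4.02 and 3.50 with MDP. It rose in steps without overlap. In knockout cells the mean ratio was 1.70 ± 0.03 (SD, n = 3) in water, 1.97 ± 0.04 with GM and 2.03 ± 0.17 with MDP, so the treated groups overlapped each other but not water. The ratio of Relb to Rela was 0.472, 0.513 and 0.230 in wild-type water, 0.592, 1.16 and 0.617 with GM and 1.22, 1.34 and 1.17 with MDP. Only with MDP did Relb exceed Rela per kilobase in every library of the group. In knockout the mean went from 0.526 ± 0.025 in water to 0.611 ± 0.015 with GM and 0.697 ± 0.056 with MDP. With 3 libraries against 3 the 2-sided exact permutation test cannot go below p = 0.1, which each of these treatment comparisons reached, with an adjusted value of 0.15 over the 30 ratio tests made.

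The inhibitor ratio behaved differently from the subunit ratios. Nfkbia stood at 1.52 ± 0.08 (SD, n = 3) times Rela per kilobase in wild-type water, 3.24 ± 0.20 with GM and 1.88 ± 0.10 with MDP. In knockout the ratio was 2.62 ± 0.03 in water, 3.27 ± 0.14 with GM and 4.14 ± 0.45 with MDP. In each genotype the 3 groups did not overlap, with GM highest in wild type and MDP highest in knockout (exact permutation p = 0.1 for each treatment against water, adjusted 0.15). Rel rose against Rela from 0.410 ± 0.101 in wild-type water to 0.664 ± 0.146 with GM and 0.715 ± 0.030 with MDP, and from 0.452 ± 0.030 in knockout water to 0.489 ± 0.007 and 0.571 ± 0.071. Nfkbib fell against Nfkbia with GM in wild type, from 0.403 ± 0.082 to 0.268 ± 0.064, without overlap but within the same limit of the test.

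**Figure D3:**
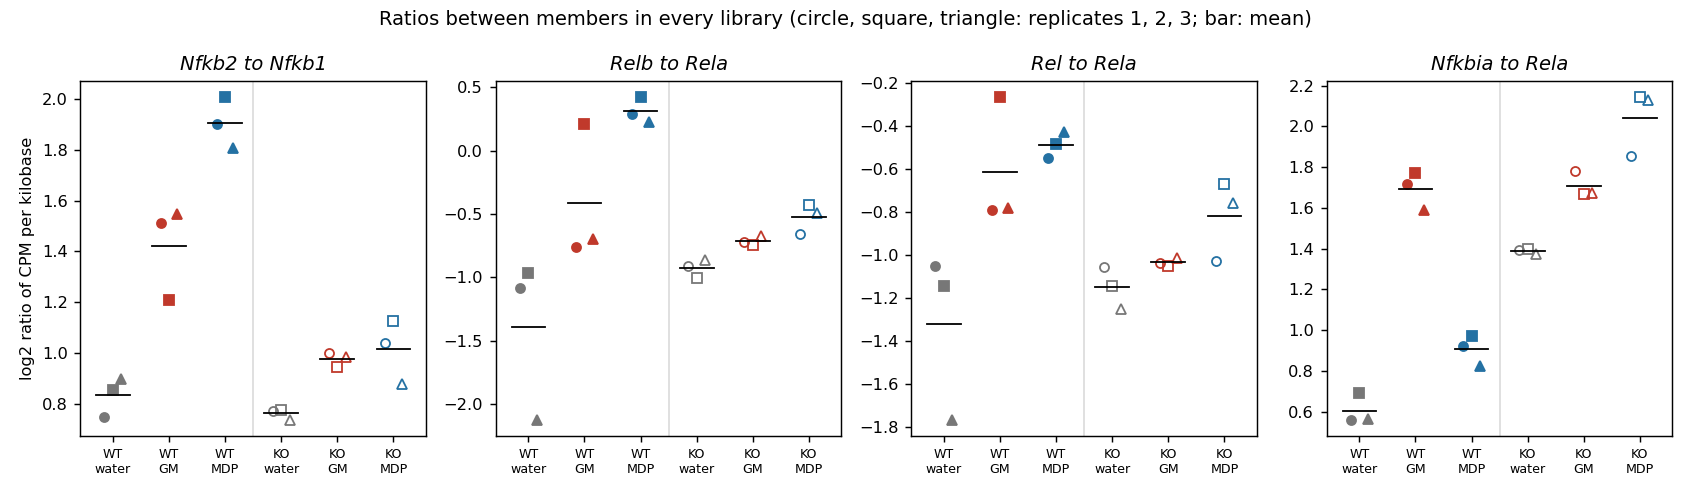
The 4 panels plot, for each library, the log2 ratio of 2 genes in CPM per kilobase, with bars at the group means; filled points are wild type and open points knockout. Nfkb2 to Nfkb1 and Relb to Rela are highest in wild-type MDP, whereas Nfkbia to Rela is highest in knockout MDP and peaks with GM in wild type.

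Summed per kilobase, the 10 genes came to 159 ± 9 CPM per kilobase (SD, n = 3) in wild-type water, 310 ± 15 with GM and 281 ± 13 with MDP, and to 202 ± 9, 230 ± 2 and 276 ± 12 in knockout. The family as a whole was thus of similar size after MDP in the genotypes but of different make-up. Subunits made up 57.4% ± 0.3 of the sum in wild-type MDP and 37.3% ± 1.4 in knockout MDP. Cytoplasmic inhibitors made up 37.3% ± 0.3 and 52.1% ± 1.2 in the same groups. Relb alone went from 6.67% ± 2.12 in wild-type water to 15.1% ± 0.5 with MDP, and stayed at 6.38% to 6.64% on average in the knockout groups. Nfkbiz held 0.562% ± 0.137 of the sum in wild-type water and 3.75% ± 0.37 in knockout water.

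**Figure D4:**
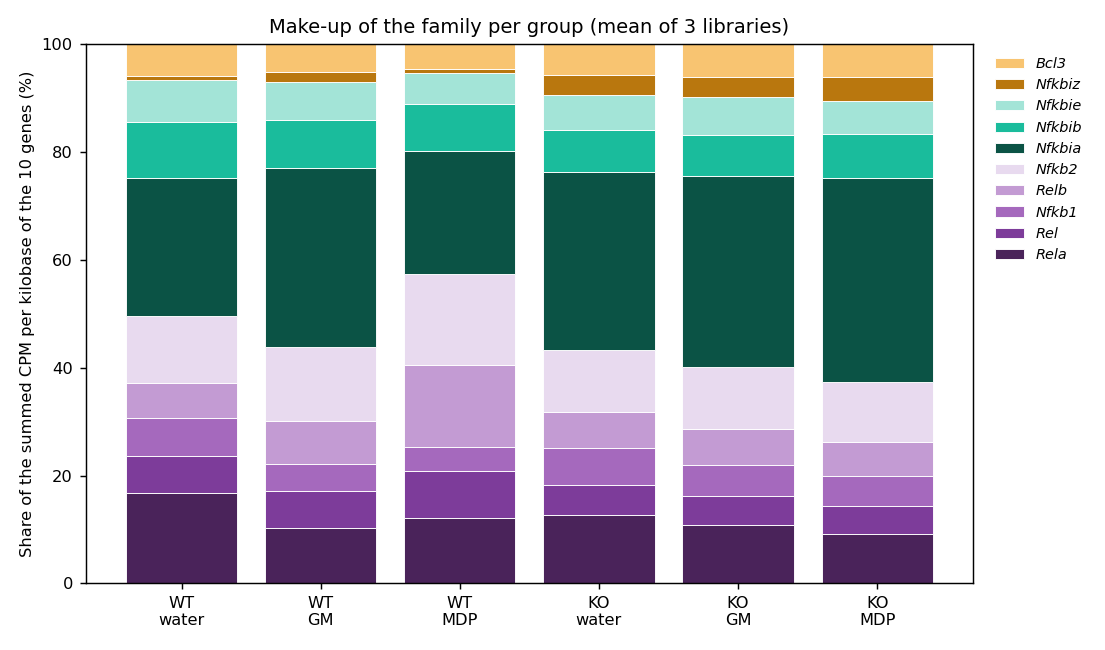
Stacked bars give the mean share of each gene in the summed CPM per kilobase of the family, in percent, for the 6 groups of 3 libraries. The Relb and Nfkb2 segments widen in wild-type MDP, where Nfkbia falls to 22.8%, and Nfkbia reaches 37.8% in knockout MDP.

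Ordered per kilobase, Nfkbia was the most abundant member and Nfkbiz the least in all 6 groups, both clear of their neighbours. In wild-type water Nfkbia at 40.7 CPM per kilobase was followed by Rela at 26.8 and Nfkb2 at 19.5, each apart from the next above. From Nfkb2 down to Bcl3 at 9.77 CPM per kilobase the ranges of neighbours overlapped, so their order is not resolved. Nfkb2 took the second place in both GM groups and both MDP groups. Relb moved from the eighth place in wild-type water, at 10.5 CPM per kilobase, to the third with MDP, at 42.5, where its range overlapped that of Nfkb2 and cleared that of Rela at 34.1. Nfkb1 was among the lowest in treated cells, at 12.7 to 16.0 CPM per kilobase in wild-type MDP and GM.

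The rest of the pathway was read from lists chosen by function. Among 19 kinases and adaptors of the canonical arm, GM in wild type raised 1, Ikbkb (the kinase that marks IkB proteins), at a log2 fold change of 0.51 ± 0.08 (SE), and lowered 1, Irak4 (a kinase below Toll-like receptors), at -0.31 ± 0.08. MDP in wild type raised Ikbkb by 0.54 ± 0.08 and lowered 2, Ripk2, the kinase adaptor of NOD2, at -0.83 ± 0.14, and Myd88, at -0.35 ± 0.12. None of the 19 passed in knockout with either treatment in the edgeR fit of all libraries. The fits of the 6 knockout libraries called 1 higher with GM, and 2 higher and 1 lower with MDP. Over all genes these fits called 3.79% higher and 4.05% lower with GM, and 9.29% and 9.84% with MDP. Beside the wild-type counts above, 3.94% of all genes passed higher and 0.777% lower with GM, and 11.2% and 13.5% with MDP. In the fits of the 6 wild-type libraries compared, neither GM call held (edgeR adjusted p = 0.29 for Ikbkb and 0.607 for Irak4), and with MDP Ikbkb and Ripk2 held and Myd88 did not (0.148). The Ripk2 response to MDP differed between the genotypes by -1.11 ± 0.20 (edgeR adjusted p = 0.00332). Untreated knockout cells already had less Ripk2 than untreated wild-type cells, by -0.89 ± 0.14 (edgeR adjusted p = 0.000272). Its group means in water, GM and MDP were 40.84, 44.5 and 22.99 CPM in wild type. In knockout they were 22.1, 23.05 and 26.92 CPM. The part of that starting level in the response difference was not tested. In water, 8 of the 19 were lower in knockout and 2 higher, beside 18.5% of all genes lower and 14.6% higher. The fit of the 6 water libraries called 5 lower and 0 higher, beside 8.3% and 6.32%.

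Of 16 genes of the non-canonical arm, GM in wild type raised 7, with Cd40, a receptor that feeds this arm, at 2.89 ± 0.17 (SE), Birc3, a ligase that holds NIK down, at 0.95 ± 0.12, and Map3k14 (NIK) at 0.77 ± 0.12 on the log2 scale. MDP in wild type raised 8 and lowered 1, led by Cd40 at 1.78 ± 0.17, Birc2 (a relative of Birc3) at 1.45 ± 0.14 and the cytokine gene Tnfsf13b at 1.30 ± 0.31. Tnfsf13b was near the floor, with group means of 0.482 CPM in wild-type water and 1.18 CPM with MDP. Map3k14 had group means of 49.5, 84.4 and 108 CPM in wild-type water, GM and MDP, and 31.9, 35.3 and 49.2 CPM in knockout. In knockout MDP raised 3, Cd40 at 2.52 ± 0.17, Map3k14 at 0.62 ± 0.12 and Birc3 at 0.48 ± 0.12, and GM 0. The shares of all genes that passed upward were 3.94% for GM and 11.2% for MDP in wild type and 1.59% for MDP in knockout. The list's median was 0.43 with GM and 0.19 with MDP in wild type, beside -0.03 and -0.04 over all genes. In the fits of the 6 libraries compared, 1, 4 and 7 genes of the list passed upward in these comparisons, beside 0.621%, 4.63% and 9.29% of all genes, and 2 with GM in knockout, beside 3.79%. With GM in wild type the 1 was Cd40, Birc3 and Map3k14 not passing (edgeR adjusted p = 0.134 and 0.148), and Tnfsf13b did not pass there with MDP (0.11). The response difference passed for Cd40 and Traf3 with GM and for Birc2 with MDP, by 2.60 ± 0.24, 0.66 ± 0.12 and 0.93 ± 0.19, beside 1.77% and 4% of all genes with a larger response in wild type.

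Of 9 other IkB and IkB-kinase-related genes, GM in wild type raised 2, Ikbke (an IkB-kinase relative) at 1.12 ± 0.25 (SE) and Tank at 0.45 ± 0.10 on the log2 scale. MDP raised 3 and lowered 1, with Ikbke at 1.79 ± 0.25. In the fits of the 6 libraries compared neither GM call held (edgeR adjusted p = 0.592 for Ikbke and 0.448 for Tank). With MDP 1 gene passed there, Ikbke, beside 4.63% of all genes upward. Ikbke was also higher in knockout water, at 1.58 ± 0.25, as was the nuclear IkB gene Nfkbid, at 0.70 ± 0.16. Among 19 genes of feedback and ubiquitin control, GM in wild type raised 6, led by Tnfaip3 (A20, a ubiquitin editor that ends the response) at 1.44 ± 0.07, Zc3h12a at 0.90 ± 0.12 and Irak3 at 0.72 ± 0.09. MDP in wild type raised 5 and lowered 2, with Tnfaip3 at 1.06 ± 0.07. The fits of the 6 libraries called 1 gene of this list with each treatment, Tnfaip3. Over all genes these fits called 0.621% upward with GM and 4.63% with MDP. Neither Zc3h12a nor Irak3 held there with GM (edgeR adjusted p = 0.163 and 0.115). Over all genes, 3.94% passed upward with GM and 11.2% with MDP in wild type, and 13.5% passed downward with MDP. Irak3 and Zc3h12a were higher in knockout water by 2.33 ± 0.09 and 1.81 ± 0.12. Of the 19 genes, 7 passed upward and 4 downward there, beside 14.6% and 18.5% of all genes. The list's median log2 fold change there was -0.05, beside -0.03 over all genes. The fit of the 6 water libraries called 4 upward and 0 downward, beside 6.32% and 8.3% of all genes. None of 12 nuclear co-regulators passed with either treatment in either genotype in the edgeR fit of all libraries. In the fits of the compared libraries 2 passed, both lower with MDP in knockout, beside 9.84% of all genes.

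Among 29 textbook kappaB targets outside the family, 19 rose with GM in wild type, 13 rose and 3 fell with MDP in wild type, 0 passed with GM in knockout and 12 rose with MDP in knockout. The shares of all genes passing upward were 3.94%, 11.2%, 0% and 1.59%, and 13.5% passed downward with MDP in wild type. The list's median log2 fold changes in these 4 comparisons were 1.36, 0.46, 0.04 and 0.80, beside -0.03, -0.04, -0.00360 and -0.00532 over all genes. The fits of the 6 libraries compared called 9 up; 9 up and 1 down; 10 up and 4 down; and 22 up and 1 down. Over all genes these fits called 0.621% up; 4.63% up and 3.59% down; 3.79% up and 4.05% down; and 9.29% up and 9.84% down. Il6, a cytokine gene that depends on IkBζ, rose by 7.13 ± 0.38 (SE) with GM in wild type and by 2.95 ± 0.28 with MDP in knockout. Its mean was also higher with MDP in wild type, with 0.722, 102 and 5.14 CPM in wild-type water, GM and MDP. The knockout means were 3.35, 3.30 and 25.9 CPM. Il12b rose by 7.00 ± 0.45 with GM and 5.29 ± 0.45 with MDP in wild type, and by 4.15 ± 0.40 with MDP in knockout. The response difference for GM passed in 17 of the 29, all larger in wild type, and for MDP in 8, of which 3 were larger and 5 smaller in wild type. Over all genes the response was larger in wild type for 1.77% with GM, and for MDP larger for 4% and smaller for 3.91%. The fits of the 12 libraries compared called 13 of the list for GM, all larger in wild type, and for MDP 3 larger and 4 smaller. Over all genes these fits called 0.926% larger in wild type with GM, and 4.63% larger and 3.34% smaller with MDP.

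Genes with the most similar pattern were sought for the 5 members whose group means spanned at least 1 on the log2 scale, by the root mean square difference over the 6 group means, each gene centred on its own mean. For Rel the nearest of the tested genes were Gadd45b at 0.04, Rabgap1l at 0.06 and Nfkb2 at 0.08. Gadd45b was also the nearest to Nfkb2, at 0.06, followed by Rel and Gm5831 at 0.09. Relb was most like Glipr2 at 0.10, Mamstr and Pcgf5, both at 0.12, and Nfkb2 was its nearest fellow member at 0.25. Nfkbia was most like D130040H23Rik at 0.10, Ntng2 at 0.11 and Gm43080 at 0.14. For Nfkbiz the nearest were Smpdl3b and Dgat2 at 0.31 and Ppfia3 at 0.33. Its group means spanned 3.76, against 1.19 to 2.06 for Rel, Relb, Nfkb2 and Nfkbia, and the differences were not scaled to the span. Rela, Nfkb1, Nfkbib, Nfkbie and Bcl3 spanned less, 0.45 to 0.96. Several of the similar genes had low levels. Mamstr and Gm43080 averaged 0.28 and 0.42 CPM over the libraries, and Gm5831, D130040H23Rik and Ppfia3 3.26 to 3.57 CPM.

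By the count table's GRCm39 positions the 10 genes lie on 7 chromosomes and are all protein-coding. Relb (19340142 to 19363363), Bcl3 (19542387 to 19556695) and Nfkbib (28457676 to 28466937) are on the minus strand of chromosome 7, with Relb and Bcl3 close neighbours. Their patterns differed: Relb was highest in wild-type MDP, whereas Bcl3 was highest in knockout MDP on average. Rela and Nfkb2 are both on the plus strand of chromosome 19, at 5687511 to 5698158 and 46292759 to 46300824.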

How the data were processed

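RNA of 18 libraries in 6 groups was measured by sequencing of poly(A)-enriched directional libraries. Per the submitters' processing notes, reads were processed with HISAT2 2.0.5 and featureCounts 1.5.0-p3 on build GRCm39; settings, strand use and annotation release are not given in the sources used here. The deposited table holds the authors' raw counts per gene, with gene lengths in bases and positions. The authors' FPKM values (scaled by gene length and library size) served only as a second scale for the ratios, which it leaves unchanged because scale factors cancel within a library.

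Genes were kept by filterByExpr (minimum count 10), leaving 15450. One robust edgeR 4.0.16 quasi-likelihood fit (R 4.3.3) with TMM factors (0.877 to 1.06), 1 mean per group and 12 residual degrees of freedom gave 9 comparisons, with 2-sided F tests and Benjamini-Hochberg adjustment over all genes at 0.05. SE are those of the log2 fold change. Alternatives were the compared libraries alone, DESeq2 1.42.0, its size factors, no filter, a replicate block, limma 3.58.1 voom with a spread per group, and leaving out each library. The script was tested on simulated data. Ratios were compared by exact permutation.

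All members are named. Of each list, up to 3 passing genes with the largest absolute log2 fold change per comparison could be named. Group means of genes so named could also be given for other groups. Similar patterns were the 3 nearest genes over group means of log2 CPM (prior count 2). Members, lists and tests were chosen with earlier results of these data known. Neutrophil markers summed to 1246 to 2548 CPM over the libraries, B cell markers to 6.99 CPM or less and T and NK cell markers to 6.81 CPM or less. Most of the neutrophil sum was Mmp8, with group means of 1830 to 2260 CPM. S100a8 had group means of 13.8 to 128 CPM and each other neutrophil marker 10.8 CPM or less, with Ly6g at 0.115 CPM or less.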

Additional observations from a re-analysis of the deposited data

Results flagged for a closer look

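Rel, Nfkb2, Nfkbia and Nfkbiz responded to GM by different amounts in the genotypes, the wild-type minus knockout response being 0.88, 0.93, 1.05 and 2.34 on the log2 scale in edgeR's test of that difference. For MDP the difference passed for Rel (0.85), Relb (1.63) and Nfkb2 (0.90). In all 7 cases the wild-type response was the larger. The untreated knockout cells started from a higher level of Nfkbiz and Nfkbia than the wild-type cells, and the part of that starting level in the differences was not tested.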

How the results depend on the processing

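With only the compared libraries, the number of members passing changed from 8 to 3 for GM in wild type, from 0 to 5 for GM in knockout, from 2 to 8 for MDP in knockout and from 1 to 8 for GM against MDP in knockout. Fewer libraries then set the spread, which differed between groups. With limma-voom and a spread for each group, 5 passed for GM against MDP in wild type, and 2 for GM, 8 for MDP and 6 for GM against MDP in knockout. Leaving out 1 library at a time gave 4 to 8 members for the difference in GM response and 3 to 5 for the difference in MDP response, the highest without wild-type water replicate 3. The same gave 1 for MDP and 0 for GM against MDP in knockout, whichever library was left out. In a setting chosen after seeing the data, the compared libraries without wild-type water replicate 3, 4 passed for GM in wild type, 6 for knockout against wild type in water and 6 for the difference in MDP response. There Bcl3's difference in MDP response was 0.48 and Nfkbib's difference between untreated genotypes 0.20, both opposite in sign to the reported values; over the libraries left out one at a time, Bcl3's difference ran from -0.41 to 0.52. A change of sign between values neither of which passed was not counted. DESeq2, its size factors and no filter left every count of members within 1.5 times that reported. DESeq2 lost 0 calls and added 4. These were Relb's difference in GM response (DESeq2 adjusted p = 0.0258) and Rela's difference in MDP response (0.0492). The others were Nfkbiz with MDP in knockout (0.0286) and Nfkbie for GM against MDP in wild type (0.0474). The replicate numbers did not pair the samples: deviations of same-numbered samples correlated from -0.185 to 0.484 (median 0.0034, over 0.1 in 3 of 45 pairs), and 0 of 18 samples correlated best with its own number in every other group. With the replicate block, 0 members passed for GM against MDP in knockout (edgeR adjusted p = 0.0585 for Nfkbia) and 4 in wild type, and the other counts were as reported. The cause of these changes was not tested.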
